A study of Drosophila melanogaster with 12 samples.

Results

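The chromatin around 3 genes that direct the formation of glia in Drosophila melanogaster was described with Polycomb binding scores from larval tissues. The genes are gcm (FBgn0014179) and its neighbour gcm2 (FBgn0019809) on arm 2L, and repo (FBgn0011701) on arm 3R. They were represented by fragments between neighbouring GATC sites that start at positions 9550001 to 9630000 of 2L, the gcm and gcm2 interval, or at positions 14050001 to 14130000 of 3R, the repo interval, both in the genome build dm3. The first interval held 295 fragments and the second 271, together 566 of the 356504 fragments in the table. The bounds of the intervals were set by gene positions and used no score, but the genes were chosen with earlier results of these data known. No dm3 annotation was used here, so none of the 3 genes is placed at a particular fragment, exon or intron, and values are given by position. In the order of genes of Release 6, another assembly, CG3841 and CG4382 lie between gcm and gcm2 together with a long non-coding RNA gene, Mtpalpha and CG31709 precede gcm, and Trx2 and GlcAT-S follow gcm2. There repo lies between Mdh2 and CG7156.

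The profiles are named glia, brain and fat body, and each is the authors' mean over 2 biological replicates of Dam-Polycomb set against Dam alone. DamID uses the bacterial methyltransferase Dam, which marks the adenine of GATC sites. Fused to Polycomb it marks sites near bound Polycomb, and the free enzyme records how accessible each site is. All material came from wandering larvae of the third instar, in pools of 20 per sample for glia and for brain and of 10 for fat body, and 12 samples in 6 groups stand behind the table. The glia profile came from larvae of both sexes in which a repo-driven recombinase (repoFlp5) removed a stop cassette from min.hsp70P-STOP#1-Dam or its Dam-PC counterpart at ZH51C, so that the methyltransferase is active in cells with a history of repo activity. The brain profile came from male larvae with Dam[4-HT-intein@L127C], alone or fused to Polycomb, behind an hsp70 promoter and without induction, and covers the whole central brain without the ventral nerve cord, glia included. The fat body profile came from male larvae with the same intein form of Dam, induced by 25 µM 4-hydroxytamoxifen in the food. Between glia and the other profiles, tissue, transgene system and sex therefore change together. Brain and fat body share sex and the form of Dam but differ in tissue, 4-hydroxytamoxifen induction and pool size. Fat body differs from glia in induction and pool size too. Each brain Dam-only sample also had 3 technical replicates. The parts of these factors in any difference cannot be told apart. Whether the repo-driven recombinase transgene holds DNA of the repo region, whose reads would be placed there, is unknown here. The data hold no expression values, so the glial label was not checked against marker genes.

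Polycomb is the chromodomain subunit of a Polycomb repressive complex that binds histone H3 methylated at lysine 27, and its domains cover many genes for developmental transcription factors in cells where those genes are silent. gcm encodes a zinc-containing transcription factor that turns neural precursors towards the glial fate in the embryo and also acts in the plasmatocytes of the blood. gcm2 encodes a related factor with overlapping roles. repo is a target of gcm that encodes a homeodomain protein that maintains the glial state and is found in nearly all glia except those of the midline.

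A score is the log2 of Dam-Polycomb over Dam alone, so 0 means equal signal and each unit doubles the ratio. Scores differ in level between profiles: their medians over the whole table were -0.60 for glia, -1.24 for brain and 0.092 for fat body, over 196103, 122591 and 152409 scored fragments. Their spread differed as well: brain scores had the largest SD over the table, 2.79, against 2.12 (glia) and 1.98 (fat body). Comparisons are given as deposited and, where it changes the reading, after subtracting from each profile its own median (centred). Centring removes the difference in level but not that in spread. How far the wider range of brain scores enters the gaps within brain domains, or the counts of fragments over 1 or 3 apart, was not tested. Each profile gives 1 value per fragment, without replicate values, so no spread between animals, no interval and no test could be had, and the read depth is unknown. SDs describe the scatter among fragments of a stretch, not among animals. The scatter of a 10-kb bin mean was estimated over the whole table from the difference between the means of odd and even fragments of a bin. It was 0.26 in glia (11603 bins), 0.29 in brain (9867 bins), and 0.31 in the fat body (10347 bins). These values are not the error of the single bins described below and hold no error between replicates.

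In the gcm and gcm2 interval, glia scored far lower than brain over a long stretch of high Polycomb signal in brain. That stretch was 1 continuous brain domain at 2L:9576890-9612330, 35.4 kb long. Over this stretch glia averaged 0.39 ± 1.16 (SD over fragments) over 112 fragments, against 4.31 ± 1.39 over 91 fragments in brain, all of them above the brain median, and 0.94 ± 1.05 over 44 fragments in fat body. The domain was called on the brain scores themselves, so a higher brain score within it is largely set by that choice. The values are read against all brain domains called the same way, which does not adjust for how high brain scored in each domain. The mean difference of glia from brain was -4.04 ± 1.48 over 88 shared fragments, against a median of -1.87 over 345 brain domains. The mean difference of brain from fat body was 3.54 ± 1.67 over 42 shared fragments, against a median of 1.48 over 317 brain domains. Glia and fat body were close to each other: the difference of glia from fat body was -0.72 as deposited and -0.036 after centring, with glia below fat body in 28 and above it in 16 of 44 fragments. Each tissue is a mixture of cells, brain with its glia among them, so fewer cells with bound Polycomb and less Polycomb in every cell cannot be told apart.

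**Figure D1:**
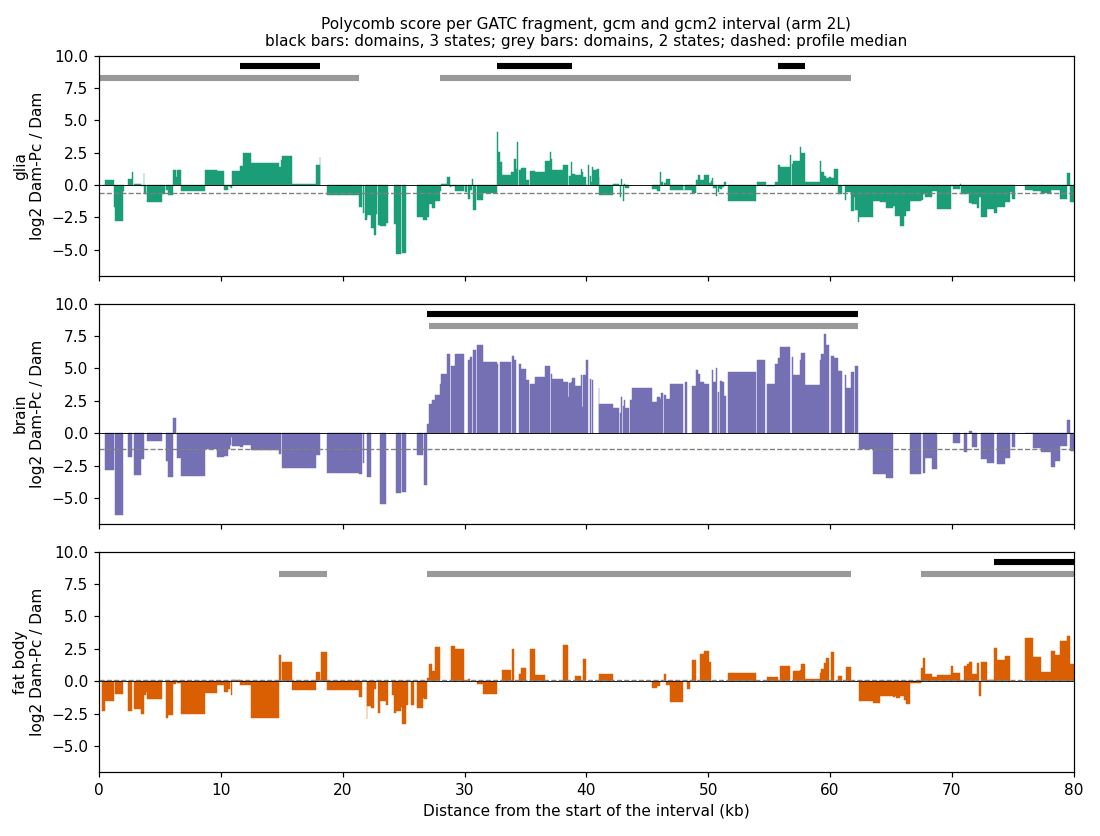
Log2 Dam-Polycomb over Dam (vertical axis) along the gcm and gcm2 interval in kb from its start (horizontal axis), 1 filled block per scored fragment, for glia (top), brain (middle) and fat body (bottom), with domains of 3 states as black bars, domains of 2 states as grey bars and the profile median dashed. Over the stretch of the brain domain brain shows a block of high scores (mean 4.31) between low flanks. Glia (0.39) and fat body (0.94) show plateaus there, lower than brain but above their own profile medians.

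The repo interval held 2 separate brain domains that differed in what fat body did. At 3R:14082127-14099357, 17.2 kb, glia averaged -0.38 ± 2.05 over 25 fragments, brain 5.37 ± 1.47 over 30 and fat body -0.36 ± 1.57 over 24. Here too the stretch was chosen by high brain scores. The mean difference of glia from brain was -6.09 ± 2.49 over 24 shared fragments and that of brain from fat body 5.66 ± 1.93 over 23, beside the same medians of -1.87 and 1.48 over brain domains. At 3R:14056456-14064395, 7.94 kb, glia averaged 0.30 ± 1.61 over 27 fragments, brain 3.28 ± 1.27 over 16 and fat body, here the highest, 5.37 ± 1.85 over 14. There the mean difference of glia from brain was -3.18 ± 1.61 over 16 fragments, and glia was lower than fat body in 14 of 14, with a mean difference of -5.24 ± 1.30. Brain was lower than fat body in 14 of 14 fragments, and the mean difference was -1.89 ± 1.31 as deposited and -0.56 after centring. Glia was thus the lowest profile over this second stretch, and level with fat body over the first.

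**Figure D2:**
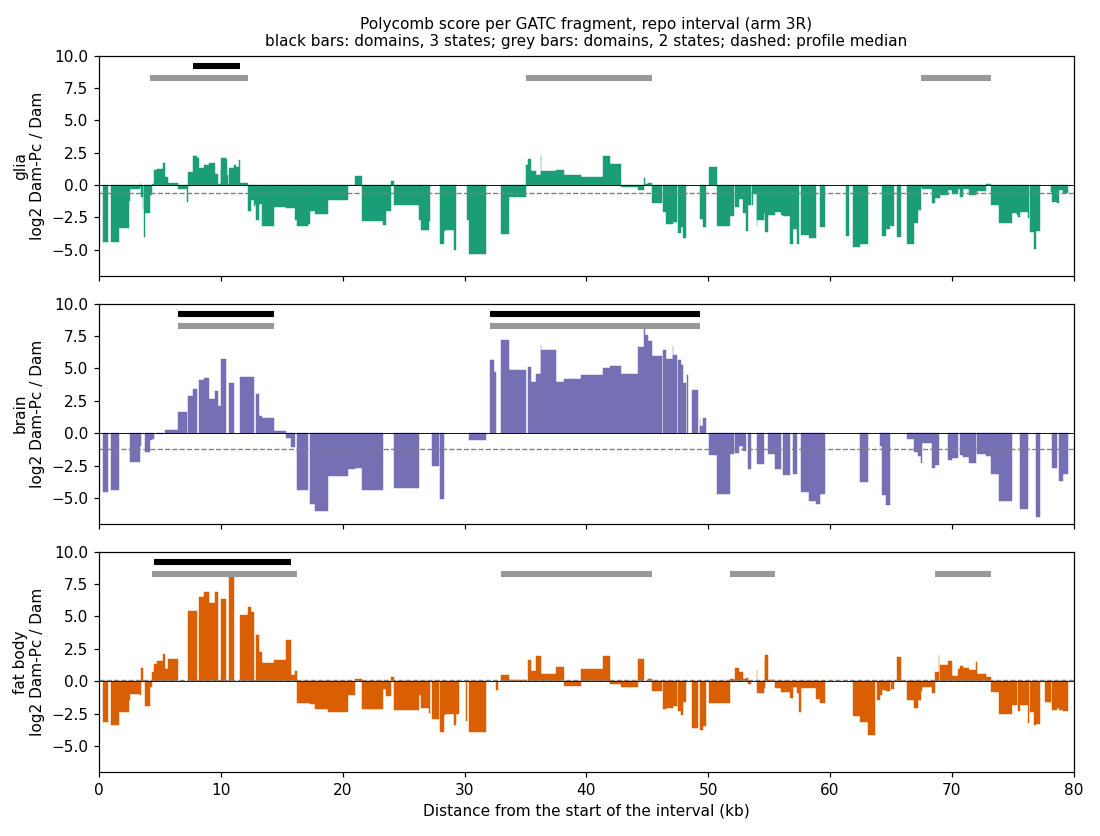
Log2 Dam-Polycomb over Dam (vertical axis) along the repo interval in kb from its start (horizontal axis), 1 filled block per scored fragment, for glia (top), brain (middle) and fat body (bottom), with domains of 3 states as black bars, domains of 2 states as grey bars and the profile median dashed. The left block averages 0.30 for glia, 3.28 for brain and 5.37 for fat body, and the right block -0.38 for glia, 5.37 for brain and -0.36 for fat body.

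A domain was a stretch of 5 or more consecutive scored fragments assigned to the highest of 3 states of a hidden Markov model fitted to each profile over the 6 main arms. In the gcm and gcm2 interval 37 of 208 scored glia fragments (17.8%) lay in domains, against 13.3% of the scored glia fragments of those arms. Brain had 91 of 150 (60.7%) in domains, against 18.3% over all arms. Fat body had 11 of 128 (8.59%), against 27.3% over all arms. In the repo interval glia had 16 of 163 (9.82%), brain 46 of 113 (40.7%) and fat body 21 of 148 (14.2%). With 3 states brain thus stood above its own background share in both intervals and fat body below its own in both, while glia stood above in the first and below in the second. The fat body share around gcm and gcm2 depends on the number of states. With 2 states it was 75 of 128 (58.6%), near the 56.2% over all arms in that setting. The glia share around gcm and gcm2 depends on which fragment lengths are used: with fragments of 200 to 2000 bp it was 5 of 111 (4.50%), below the 12.1% over all arms in that setting, and 21 fragments were left with at least 10 fragments per domain.

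Glia had 3 called domains of its own around gcm and gcm2, which ranked 238, 427 and 435 of 560 glia domains by mean score. The one ranked 435, at 2L:9582648-9588786, averaged 1.65 over 21 fragments and lay inside the brain domain, where brain averaged 4.65 and fat body 1.53 over its 7 scored fragments. The one ranked 238, at 2L:9605761-9607938, averaged 2.03 over 7 fragments, with brain at 5.79 and fat body at 1.03. These sat within longer runs of glia scores above the glia median. The run at 2L:9582648-9591076 averaged 1.35 over 34 fragments and the run at 2L:9603988-9610649 averaged 1.14 over 19. Between them, at 2L:9593107-9598670, glia averaged -0.062 over 13 fragments and brain 2.91. In brain the same middle stretch was also the low point of the domain: in windows of 2 kb, the brain mean was 6.04 in the window starting at 9580001, 2.37 in the one starting at 9592001 and 6.55 in the one starting at 9608001. Glia and brain thus each had a pair of maxima with a dip between them, although the glia value in the window starting at 9580001 was only -0.73 where brain was at 6.04. The dip was not particular to glia and brain. Fat body averaged -0.47 over 6 fragments at 2L:9593107-9598670. Its runs above its own median on either side averaged 1.34 over 10 fragments (2L:9583069-9592199) and 1.14 over 19 (2L:9598671-9611686). Across the 88 shared fragments of the domain Pearson's r between glia and brain was 0.33. Between glia and fat body it was 0.25 over 44 fragments and between brain and fat body 0.20 over 42; neighbouring fragments share sequence context and are not independent.

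The glia and fat body stretches of the upper of 2 states ran over nearly the same bases as the brain domain. With 2 states in place of 3, domains held 57.5% of all scored glia fragments and 56.2% of those of fat body, so lying in one is near the usual state of these profiles. A single glia domain covered 2L:9578023-9611686 with 105 fragments at a mean of 0.53, and another, 2L:9540895-9571373, held 67 fragments and began before the interval. A single fat body domain covered 2L:9576890-9611686 with 44 fragments at a mean of 0.94. The fat body stretch began at the same base as the brain domain, and the glia and fat body stretches ended at the same base, 9611686, before the brain edge at 9612330. Of the 112 glia fragments in the brain domain 93 lay above the glia median, as did 37 of 44 fat body fragments relative to theirs.

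The remaining glia domain of the gcm and gcm2 interval was outside the brain domain, at 2L:9561578-9568157. It was 6.58 kb long and averaged 1.66 ± 0.69 over 9 fragments, while brain averaged -1.71 and fat body 0.018 over 7 fragments each. This is the part of the interval where glia was highest relative to brain. In the bin starting at 9560001 glia was higher than brain in 13 of 13 fragments, by 2.36 ± 1.29 as deposited and 1.72 after centring. The table leans the same way as deposited: its median difference of glia from brain was 0.69, and glia was over 1 higher in 43.8% of fragments. The fragment at 2L:9565007-9565859 scored 2.22 in glia, -2.71 in brain, and 1.48 in the fat body, and the one at 2L:9562438-9564743 scored 1.68 in glia, -1.33 in brain, and -2.82 in the fat body. Fat body had a single domain in the interval, at its other end, 2L:9623485-9631317. It averaged 2.24 ± 0.82 over 12 fragments, where glia averaged -0.84 and brain -1.25.

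Within the larger brain domain of the repo interval, glia and fat body changed at the same fragment boundary and brain did not. From 3R:14085019 to 14095374, 10.4 kb, 16 consecutive glia scores lay above the glia median and averaged 0.97 ± 0.82, with brain at 5.60 over 15 fragments and fat body at 0.82 over 12. From 14095375 to 14098183 all 7 glia scores lay below the glia median and averaged -2.91 ± 0.92, with brain at 5.70 over 8 fragments and fat body at -1.84 over 8. The fat body run below its own median likewise began at 14095375 and went on to 14099174, averaging -2.03 ± 0.81 over 9 fragments. With 2 states the glia domain 14085019-14095374 and the fat body domain 14082975-14095374 both ended at that base, while the brain domain went on to 14099357. Over the whole brain domain Pearson's r was 0.77 between glia and fat body (21 fragments), -0.081 between glia and brain (24) and 0.030 between brain and fat body (23). The domain was called on high brain scores, which limits their range within it, so the low r with brain is partly set by that choice. Over the whole repo interval r was 0.62 between glia and fat body (135 fragments), 0.47 between glia and brain (104) and 0.46 between brain and fat body (104). Inside the domain the glia profile thus ran closer to fat body than to brain, as a description of fragments of 1 stretch.

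The smaller brain domain of the repo interval also had an inner step in glia. From 3R:14057324 to 14062241 glia averaged 1.30 ± 0.70 over 18 fragments, all above its median, with brain at 3.67 and fat body at 6.32. From 14062242 to 14064395 glia averaged -1.94 ± 0.74 over 7 fragments, all below its median, with brain at 2.83 and fat body at 3.66 over 5 fragments each. The only 3-state glia domain of the repo interval, 14057728-14061583, fell in the higher of these stretches, averaged 1.38 over 16 fragments and ranked 536 of 560 glia domains by mean score. The fat body domain here, 14054544-14065740, was longer than the brain domain and ranked 23 of 1937 fat body domains, with a mean of 4.18 ± 2.32 over 21 fragments. Here r was 0.75 between glia and fat body, 0.71 between brain and fat body (14 fragments each) and 0.46 between glia and brain (16 fragments), within a stretch again called on brain scores.

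Single fragments showed how far the profiles parted. In the repo interval the fragment at 3R:14082975-14083626, 652 bp, scored -3.77 in glia, 7.18 in brain, and 0.51 in the fat body. Its difference of -10.95 between glia and brain was the most negative of all 114601 fragments scored in both. The fragments at 3R:14097487-14097792 and 3R:14097133-14097475 came next in the interval, and the one starting at 14097487 scored -3.72 in glia, 5.63 in brain, and -2.27 in the fat body. The largest excess of brain over fat body was at 3R:14096293-14096500, where glia scored -2.09, brain 6.39 and fat body -2.16; its difference of 8.54 ranked 27 of 94759. In the smaller domain, the fragment at 3R:14060672-14061043 had the highest fat body score of the interval, where glia scored 1.30, brain 3.89 and fat body 8.26, rank 31 of 152409 fat body scores. Glia was lowest relative to fat body at 3R:14062242-14062440, the first fragment after the inner step, at -2.01 in glia, 4.31 in brain, and 5.75 in the fat body.

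Around gcm and gcm2 the most parted fragments, among those scored in all 3 profiles, lay at the 2 maxima of the brain domain. The fragment at 2L:9581003-9581498 scored -1.18 in glia, 6.77 in brain, and -0.23 in the fat body. The highest brain score of the interval was at 2L:9609476-9609655, where glia scored 0.71, brain 7.65 and fat body 1.39. The highest glia score of the interval, 4.07, was at 2L:9582648-9582735, a fragment of 88 bp with 5.33 in brain and no fat body score, so even there glia was lower than brain. In the repo interval the highest glia score was 2.33, in a fragment of 35 bp at 3R:14086278-14086312 where brain had 6.84. The read counts behind these short fragments are not known.

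Bin by bin, 3 bins lay wholly inside the gcm and gcm2 brain domain, where high brain scores follow from the call. In the bin starting at 9580001 the means were 0.95 ± 1.25 in glia, 4.78 ± 1.07 in brain, and 0.98 ± 1.18 in the fat body. From 9590001 on they were 0.18 ± 0.71 in glia, 3.12 ± 0.89 in brain, and 0.37 ± 1.29 in the fat body. From 9600001 on they were 0.62 ± 1.04 in glia, 5.09 ± 1.25 in brain, and 0.92 ± 0.50 in the fat body. Brain was above both other profiles by more than the SD over fragments in each of these bins, while glia and fat body differed by less than that SD. The lowest brain fragment in the 3 bins was at 1.53, and single glia fragments reached down to -1.90.

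The outer bins of that interval had other orders. In the bin starting at 9550001 the means were -0.054 ± 1.05 in glia, -2.27 ± 1.72 in brain, and -1.54 ± 0.92 in the fat body. Glia was higher than brain there in 12 of 13 fragments, by 2.25 on average as deposited and 1.61 after centring, beside a table median of 0.69 as deposited. The next bin, from 9560001, had 0.96 ± 1.10 in glia, -1.56 ± 0.83 in brain, and -0.051 ± 1.39 in the fat body. These are the 2 bins in which glia led. The bins starting at 9570001 and 9610001 each held an edge of the brain domain, and the brain SD there was 4.14 and 4.03; glia averaged -2.17 and -1.31, brain 0.30 and 0.84, and fat body -0.99 and -0.22. Fat body led in the bin starting at 9620001, where glia averaged -0.95 ± 0.75, brain -1.26 ± 0.98 and fat body 1.57 ± 1.12. Brain was lower than fat body there in 16 of 16 fragments, with a mean difference of -2.98 as deposited and -1.65 after centring. Over the table the median of that difference was -1.87 as deposited, and brain was over 1 lower in 65.0% of fragments.

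**Figure D3:**
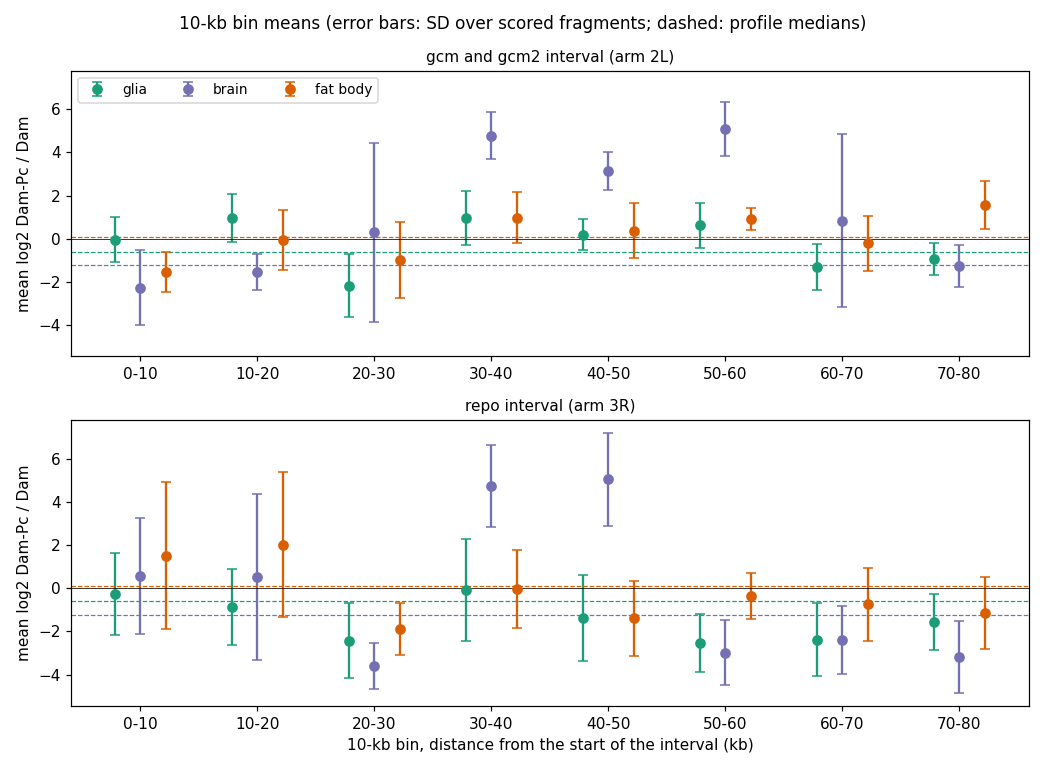
Mean log2 Dam-Polycomb over Dam (vertical axis) in each 10-kb bin of the gcm and gcm2 interval (top) and the repo interval (bottom), by distance from the start of the interval in kb (horizontal axis), for glia, brain and fat body; error bars are SDs over scored fragments and dashed lines profile medians. Brain stands alone at the top in the bins from 30 to 60 kb around gcm and gcm2 and from 30 to 50 kb in the repo interval.

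In the repo interval brain led in the bins starting at 14080001 and 14090001. The first had means of -0.095 ± 2.38 in glia, 4.73 ± 1.91 in brain, and -0.036 ± 1.80 in the fat body. The second had -1.39 ± 1.99 in glia, 5.04 ± 2.14 in brain, and -1.40 ± 1.72 in the fat body, and its mean difference of -6.71 ± 2.21 between glia and brain, over 16 of 16 fragments in 1 direction, was the most negative of the 16 bins. Glia and fat body again differed by less than the SD over fragments in both bins. Fat body had the highest mean in the bins starting at 14050001 (glia -0.27 ± 1.91, brain 0.57 ± 2.68, fat body 1.51 ± 3.42) and 14060001 (glia -0.87 ± 1.77, brain 0.52 ± 3.87, fat body 2.02 ± 3.35). Each of these bins holds a domain edge, the SDs span the differences, and after centring brain rather than fat body was highest in the first, at 1.80 against 1.42.

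The other 4 bins of the repo interval had negative means in all 3 profiles. From 14070001 on, glia averaged -2.43, brain -3.62 over 6 fragments and fat body -1.88. In the bins starting at 14100001, 14110001 and 14120001 the glia means were -2.54, -2.39 and -1.59, the brain means -2.98, -2.42 and -3.18, and the fat body means -0.36, -0.75 and -1.15. Fat body was the highest in all 4 as deposited, and after centring glia was the highest in the bins starting at 14070001 (-1.83) and 14120001 (-0.99). Glia was above brain in 13 of 13 fragments in the bin starting at 14120001, by 1.99 ± 0.91, and in 5 of 5 in the bin starting at 14070001, by 2.21 ± 1.15. After centring these differences were 1.35 and 1.57. As deposited the table leans the same way, with a median difference of 0.69 and glia over 1 higher in 43.8% of fragments. In none of these 4 bins, which lie outside the brain domains and so have low brain scores, was the mean glia difference from brain negative as deposited; after centring it was -0.14 and -0.32 in the bins starting at 14100001 and 14110001.

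Counted fragment by fragment over each whole interval, glia against brain differed from the whole table. Around gcm and gcm2 the mean difference was -1.86 ± 3.04 over 147 fragments, with means of -0.086 in glia and 1.78 in brain. Around repo it was -1.45 ± 3.50 over 104 fragments, with means of -1.22 in glia and 0.22 in brain. Over all 114601 fragments scored in both, it was 0.52 ± 2.11. After centring the means were -2.50 around gcm and gcm2, -2.09 around repo and -0.12 over the table, so the opposite sign of the table holds as deposited only. Glia was over 1 lower than brain in 89 fragments (60.5%) of the gcm and gcm2 interval and in 46 (44.2%) of the repo interval, against 21.4% of the table. It was over 1 higher in 35 (23.8%) and 32 (30.8%), against 43.8%. After centring, the lower shares were 65.3% and 51.0%, against 30.7%, and the higher shares 19.7% and 17.3%, against 30.9%. At a difference over 3, glia was lower in 64 fragments (43.5%) around gcm and gcm2 and in 31 (29.8%) around repo, against 5.71% of the table.

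Brain against fat body was split in both intervals. The mean difference was 0.44 ± 3.16 over 98 fragments around gcm and gcm2 and -0.073 ± 3.55 over 104 around repo, against -1.63 ± 2.39 over the table. Brain was over 1 higher in 41 fragments (41.8%) of the first interval and 26 (25.0%) of the second, against 12.9% of the table, and over 1 lower in 40 (40.8%) and 57 (54.8%), against 65.0%. After centring the mean differences were 1.77 and 1.26, so the sign for repo depends on the offset between the profiles. The centred higher shares were 53.1% and 35.6%, against 25.3%, and the lower shares 24.5% and 29.8%, against 41.3%. Brain exceeded fat body by over 3 in 26 fragments (26.5%) and 24 (23.1%), against 4.42%.

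Glia against fat body gave shares nearer to the table. The mean difference was -0.68 ± 1.72 over 122 fragments around gcm and gcm2 and -1.54 ± 1.97 over 135 around repo, against -1.15 ± 1.64 over the table. After centring these became 0.007, -0.85 and -0.46, so around gcm and gcm2 no direction is left. Glia was over 1 lower in 57 fragments (46.7%) and 74 (54.8%), against 54.1%, and over 1 higher in 20 (16.4%) and 8 (5.93%), against 8.84%. The centred lower shares were 27.9% and 36.3%, against 36.3%, and the higher shares 29.5% and 14.1%, against 17.3%. At a difference over 3, glia was lower in 10 fragments (8.20%) and in 28 (20.7%), against 12.0%. Of those 28 fragments around repo, 14 lay in the smaller brain domain, where fat body had its own domain. The pairwise comparisons share profiles, so they are not independent of each other.

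**Figure D4:**
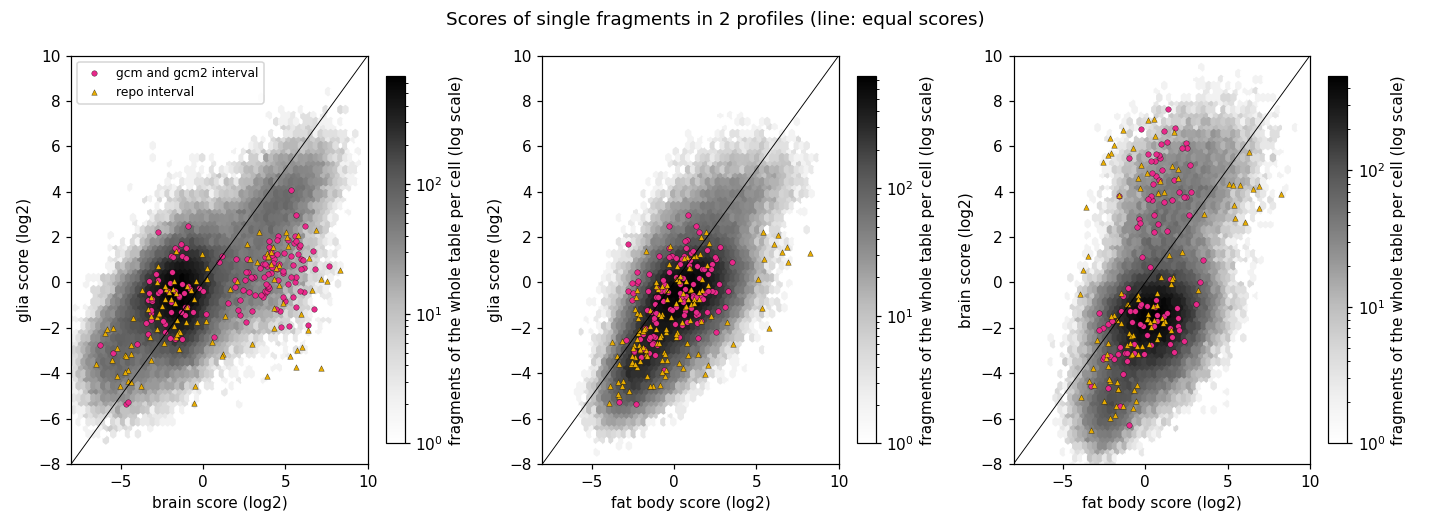
Scores of single fragments in glia against brain (left), glia against fat body (middle) and brain against fat body (right), all axes log2 Dam-Polycomb over Dam, with the gcm and gcm2 interval as circles, the repo interval as triangles, the whole table as grey density on a log scale and the line of equal scores. In the left panel a group of fragments of both intervals lies below the line, as in 64 fragments around gcm and gcm2 and 31 around repo where glia was lower by over 3; glia scores among them reach down to -5.30 in the repo interval.

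Among brain domains, those of the 2 intervals ranged from high to middling in brain score. By mean score the domain around gcm and gcm2 ranked 84 of 349, and the repo interval's domains ranked 25 (17.2 kb) and 162 (7.94 kb). For the mean difference of glia from brain, 345 domains had at least 5 shared fragments, with a median of -1.87 and quartiles of -3.004 and -0.87. Counted from the most negative, the larger repo domain ranked 4, the gcm and gcm2 domain 38 and the smaller repo domain 75. The brain score is a part of these differences and domains were not matched for it, so its part in the ranks was not tested. For the difference of brain from fat body, 317 domains could be compared, with a median of 1.48 and quartiles of 0.47 and 2.56. The larger repo domain ranked 1 of them, the gcm and gcm2 domain 32 and the smaller repo domain 314, so the repo interval held domains near both ends of this order.

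**Figure D5:**
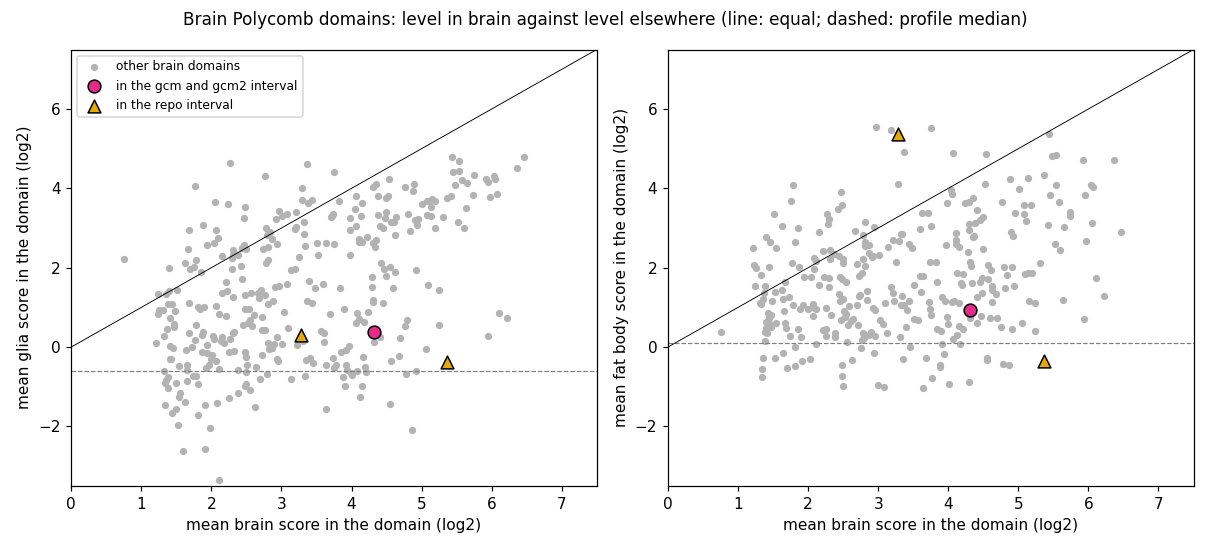
Each point is a brain domain, with its mean brain score (horizontal axis) against its mean glia score (left panel, vertical axis) or its mean fat body score (right panel, vertical axis), in log2 units and with at least 5 scored fragments; the line marks equal means and the dashed line the profile median. In the left panel the domains of both intervals lie well under the line, and in the right panel the repo domains lie apart, at 5.37 and -0.36 in fat body.

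For each interval, the bin with the highest brain mean was set beside the rest of the genome. Bins were compared by the Euclidean distance over their 3 centred means, among 9821 bins with at least 5 scored fragments in each profile. The bin starting at 3R:14090001 had centred means of -0.79 in glia, 6.27 in brain, and -1.49 in the fat body, and 3 bins lay within a distance of 1; the domain's other bin, from 14080001, had 0.50, 5.96 and -0.13 and was not compared. The nearest started at X:12500001 (0.73), 2R:19770001 (0.85), X:1640001 (0.93), 2R:9420001 (1.05) and 2L:5510001 (1.05). The bin starting at 2L:9600001 had centred means of 1.22 in glia, 6.33 in brain, and 0.82 in the fat body, and 22 bins lay within that distance. Its nearest bins started at 3R:26600001 (0.21), 3R:4100001 (0.52), 3R:7210001 (0.56), 2L:12680001 (0.60) and 2R:16850001 (0.66). Likeness of these means says nothing of shared function.

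The share of fragments with a score differed between profiles, and the gcm and gcm2 interval had many short fragments. Its median fragment length was 153 bp, and that of the repo interval 189 bp, against 197 bp for the table. Around gcm and gcm2, the glia profile scored 208 of 295 fragments, brain 150 and fat body 128, with 98 scored in all 3 and 78 in none. Around repo, glia scored 163 of 271, brain 113 and fat body 148, with 99 scored in all 3 and 91 in none. Of fragments under 200 bp around gcm and gcm2, 53.1% had a glia score, 26.6% a brain score and 16.4% a fat body score, against 30.3%, 8.91% and 17.8% over the table. Around repo these shares were 34.5%, 9.86% and 23.2%. The part of missing scores in the means was not tested beyond the alternatives on fragment length.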

How the data were processed

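The values were used as the authors deposited them: log2 ratios of Dam-Polycomb over Dam alone per GATC fragment, averaged over replicates, per the file headers and the labels. The submitters' processing notes name cutadapt, Bowtie2, HTSeq and dm3. The 3 technical replicates of each brain Dam-only sample come from the series' design text. No source used here gives the rule for leaving a fragment unscored. The log base was checked: 3029 glia, 1265 brain and 2725 fat body scores lay at half-log2 steps of small whole counts, against at most 288, 74 and 237 for other bases (tolerance 0.0011).

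Coordinates are dm3, counted from 1. Gene order came from a Release 6 table, without its coordinates. No sequence is shown and the genes were not placed. Bins of 10 kb, pairwise differences (first minus second) and domains (Student t emissions with 4 degrees of freedom, Viterbi path, whole arms) were computed with Python 3.11.15, numpy 2.4.6, pandas 2.3.3, scipy 1.17.1, numba 0.67.0 and matplotlib 3.10.9. The domain caller was run on scores simulated from its own fitted models. That run checks the code and cannot show whether 3 states suit the real scores. Named fragments were, per interval and pair, the 3 most different in each direction among those scored in all 3 profiles, and each profile's highest and lowest; the text gives a part of them. Windows of 2 kb, runs of at least 5 fragments, differences over 3 and ranks among brain domains were chosen after values were seen. The members and lists were chosen with earlier results of these data known.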

Additional observations from a re-analysis of the deposited data

How the results depend on the processing

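Alternatives were centring, quantile normalization, fragments of 200 to 2000 bp, medians, weighting by length, all scored fragments of each profile and leaving out the outer bins. Glia minus brain stayed negative under all 7, from -2.68 to -1.08 around gcm and gcm2 and from -2.26 to -0.69 around repo. The alternatives reuse the same stretches and are not independent of each other. Between bins the difference varied widely. Its standard error over bins was 0.94 beside -1.86 around gcm and gcm2 and 1.12 beside -1.45 around repo, and bins are not replicates. Glia minus fat body around gcm and gcm2 (-0.68) turned to 0.007 when centred and 0.38 when quantile normalized; around repo (-1.54) it moved to -0.85 and -0.57. Brain minus fat body around gcm and gcm2 (0.44) moved to 1.77 when centred, 1.68 when quantile normalized, 1.76 with all scored fragments and 1.45 without the outer bins. Around repo (-0.073) it turned to 1.26 when centred, 1.29 when quantile normalized, 0.087 when weighted by length, 0.60 with all scored fragments and 0.63 without the outer bins, and was -1.42 as a median; the cause was not tested. Of glia fragments around gcm and gcm2, 37 were in domains, against 141 with 2 states, 21 with at least 10 fragments per domain and 5 with fragments of 200 to 2000 bp. In brain the last setting gave 48 of 100 scored fragments (48.0%, against 16.8% over all arms), beside 91 of 150 in the main setting. In fat body 2 states gave 75 in place of 11. With 2 states, domains held 57.5% of glia and 56.2% of fat body fragments over all arms, so 141 of 208 (67.8%) and 75 of 128 (58.6%) lie above or near that background, and the repo counts of 59 of 163 (36.2%) and 62 of 148 (41.9%) below it. Around repo glia had 16, against 59 with 2 states and 9 of 113 scored (7.965%) with fragments of 200 to 2000 bp. Fat body had 21 there, against 62 with 2 states. Other domain counts stayed within 1.5 times, Gaussian emissions included. No paired analysis was possible because the table holds replicate means only, and leaving out a replicate was not run for the same reason.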
